A study of Mus musculus with 52 samples.

Results

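The expression ratios of 10 genes that ovarian cumulus and granulosa cells are known for were followed across 7 mouse embryonic stem (ES) cell lines: Has2, Amhr2, Cyp11a1, Star, Inhba, Inha, Nr5a1, Kitl, Runx1 and Esr2. The members were taken by gene symbol, through the platform annotation, and all 10 of 10 were on the array, as 14 of its 20794 probes. Star and Runx1 had 2 probes each, Nr5a1 had 3 and the other genes had 1. By their RefSeq entries the genes lie on chromosomes 15 (Has2 and Amhr2), 9 (Cyp11a1), 8 (Star), 13 (Inhba), 1 (Inha), 2 (Nr5a1), 10 (Kitl), 16 (Runx1) and 12 (Esr2). The question was whether 2 lines whose names contain CUM, PDCUMNT and ZFCUMNT, differ in these genes from lines without CUM in the name.

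Granulosa cells line the ovarian follicle, and cumulus cells are the granulosa cells that surround the oocyte and leave the ovary with it. They make steroids from cholesterol, secrete inhibin and activin, feed the oocyte with Kit ligand, answer anti-Müllerian hormone and, at ovulation, build a matrix of hyaluronan. In cloning by nuclear transfer the nucleus of such a cell can be placed in an egg without a nucleus, and an ES line can be derived from the resulting blastocyst. An ES cell is pluripotent and does not normally run the granulosa programme.

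The study hybridised 52 arrays with 2 colours, 4 for each of 13 direct comparisons between lines, and the dyes were exchanged on 2 of the 4. The lines are labelled #4 (B6), B6NT, B6PGA, PDCUMNT, ZFCUMNT, HM-1 and HM-1 NT, of which HM-1 is an established mouse ES line that has served gene targeting. They give no strain, passage, culture condition or number of clones, and the abbreviations PD, ZF, PGA, B6 and NT are left unexplained. The design text says that cumulus nuclei were the donors for 2 lines made with different cloning methods, and reading these as PDCUMNT and ZFCUMNT rests on their names. HM-1 entered 6 comparisons, ZFCUMNT 5 and PDCUMNT 2, so many comparisons share a line. The protocol text, which speaks of organs and of a pool of control animals, differs from the channel labels, and the channel labels were used. The labels do not say whether the 4 arrays of a comparison held separate RNA extracts, so p-values measure the spread between arrays, which may be technical.

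Each value below is a log2 ratio of the second-named line over the first-named line, if the deposited ratio is Cy5 over Cy3. Neither the log base nor the numerator dye is stated. Were it Cy3 over Cy5, every sign would turn, so the text speaks of positive and negative ratios. Arrays with 17620 to 20200 measured probes had median ratios from -0.20 to 0.46. Turning by the dye labels is itself a reading: before turning, arrays of opposite dye orientation correlated positively by rank in 12 of the 13 comparisons, from -0.01 to 0.49 over all features. A ratio does not give the level of a gene in either line, so whether a line expressed a gene at all was not measured. The RNA came from whole cultures, where fewer cells of a type and less RNA per cell cannot be told apart.

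None of the cumulus and granulosa genes that could be tested passed between the CUM lines and the lines they were hybridised with. In 5 comparisons the labels set a CUM line against a line without CUM in its name: HM-1 vs PDCUMNT, HM-1 vs ZFCUMNT, B6NT vs ZFCUMNT, #4 (B6) vs ZFCUMNT and HM-1 NT vs ZFCUMNT. Their mean gave each comparison the same weight. PDCUMNT entered it only through HM-1 vs PDCUMNT, so the mean describes mostly ZFCUMNT. Over 20 arrays it could be tested for 6 members, and 0 of 6 passed an adjusted p of 0.05 (limma, Benjamini-Hochberg adjustment over all features), against 0.606% of the 13199 features tested. Of the 6, 4 were positive and 2 negative. The 95% intervals, as folds, lay between 0.51 and 1.01 for Inhba and between 0.97 and 2.29 for Runx1, which had the widest interval of the 6 on the log2 scale. The narrowest was that of Nr5a1, a mean of 3 probes, from 0.86 to 1.26. Has2, Cyp11a1, Inha and Esr2 were measured on too few arrays in at least 1 of the 5 comparisons and are given without a test.

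**Figure D1:**
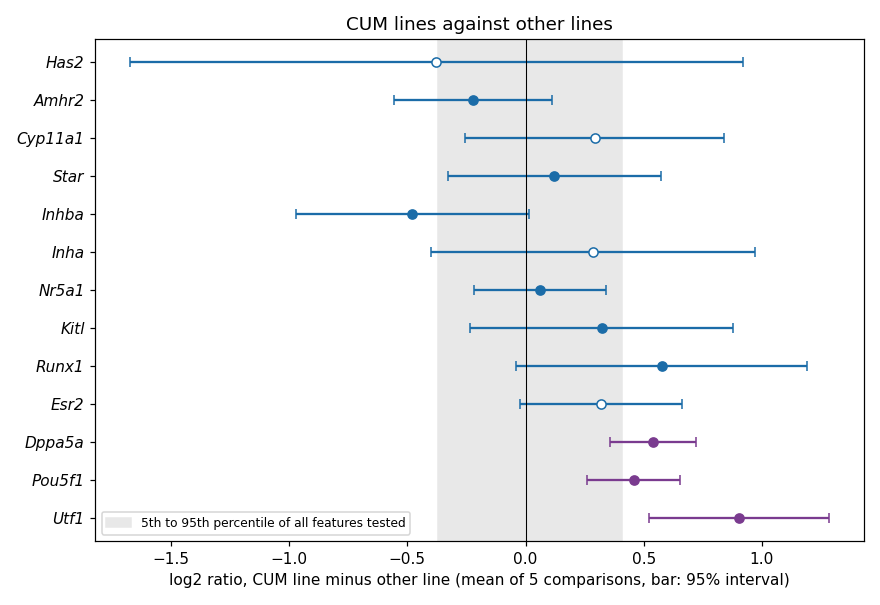
Mean log2 ratio of a CUM line over another line in 5 comparisons, with its 95% interval as a bar, for the 10 members (blue) and 3 pluripotency genes that passed the test (purple). Filled points were tested and open points were measured on too few arrays in at least 1 of the 5 comparisons to be tested; the grey band holds the central 90% of all features, from -0.37 to 0.41, and the interval of every member includes 0.

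The same arrays did yield calls elsewhere. Among the 80 features called, 51 were positive and 29 negative, and 3 were among the 11 pluripotency genes tested, of which 6 had positive and 5 negative ratios. Dppa5a was at 0.54 ± 0.09 (SE, adjusted p = 1.02e-03, limma), Utf1 at 0.90 ± 0.19 (adjusted p = 0.0119) and Pou5f1, which encodes Oct4, at 0.46 ± 0.10 (adjusted p = 0.0142). Of the 5 comparisons, Dppa5a passed singly only in #4 (B6) vs ZFCUMNT, at 2.04 ± 0.20. Without a CUM line it passed in HM-1 vs #4 (B6) at -1.41 and in #4 (B6) vs B6NT at 2.12. In #4 (B6) vs B6PGA it passed too, at 1.81, so every comparison where Dppa5a passed held #4 (B6). Pou5f1 passed singly only in HM-1 vs PDCUMNT, at 0.87 ± 0.22 (adjusted p = 0.0307, limma), and Utf1 in no single comparison. Other pluripotency genes had negative means without passing, such as Dppa4 at -0.36 ± 0.11 (adjusted p = 0.108) and Klf4 at -0.17 ± 0.08 (adjusted p = 0.425). Zfp42, not measured well enough for a test in all 5 comparisons, was at -1.12 ± 0.20. Utf1 lies farther from 0 than any of the 10 members in the same contrast. The intervals of the members are wider than those of Dppa5a and Pou5f1, with Nr5a1 the closest to them at an SE of 0.14.

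Over single comparisons, 115 of 130 possible member values could be tested, and 0 of 115 passed (limma). Of these, 8 were at an unadjusted p under 0.05, which is 6.96% against 7.79% of the 205999 values of all features. Positive ratios numbered 53 and negative ones 62. The median size of a member's ratio was 0.34 and that of all features 0.27, both regardless of sign. The smallest adjusted p was 0.126, for Cyp11a1 in HM-1 vs PDCUMNT.

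Where a CUM line was hybridised, members were counted as follows. In HM-1 vs PDCUMNT 0 of 10 passed, where 1.14% of all features did, and 5 were positive. In HM-1 vs ZFCUMNT 0 of 10 passed against 0.101%, again with 5 positive. In B6NT vs ZFCUMNT 0 of 10 passed against 0.124%, and 8 were positive, with a median of 0.44 against 0.06 over all features. With HM-1 as the partner, the member median was -0.02 for ZFCUMNT and -0.15 for B6NT, against -0.06 and 0.02 over all features. In #4 (B6) vs ZFCUMNT 0 of 7 passed against 0.935%, with 4 positive. In HM-1 NT vs ZFCUMNT 0 of 8 passed against 0.292%, with 5 positive. Between both CUM lines, in PDCUMNT vs ZFCUMNT, 0 of 9 passed against 0.763%, with 4 positive. No CUM comparison had all its members on one side.

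In the 7 comparisons without a CUM line the counts were 0 as well. HM-1 vs HM-1 NT had 0 of 10 against 0.254% of all features, and HM-1 vs #4 (B6) had 0 of 7 against 0.219%. HM-1 vs B6NT had 0 of 9 against 0.17%, with 1 of the 9 positive, the most uneven split of the 13 comparisons, and HM-1 vs B6PGA had 0 of 8 against 0.494%. B6NT vs HM-1 NT had 0 of 10 against 1.04%. #4 (B6) vs B6NT had 0 of 9 against 0.245%, and #4 (B6) vs B6PGA had 0 of 8 against 1.22%. At background shares this low, a count of 0 among 7 to 10 genes does not set the members apart from other genes.

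**Figure D2:**
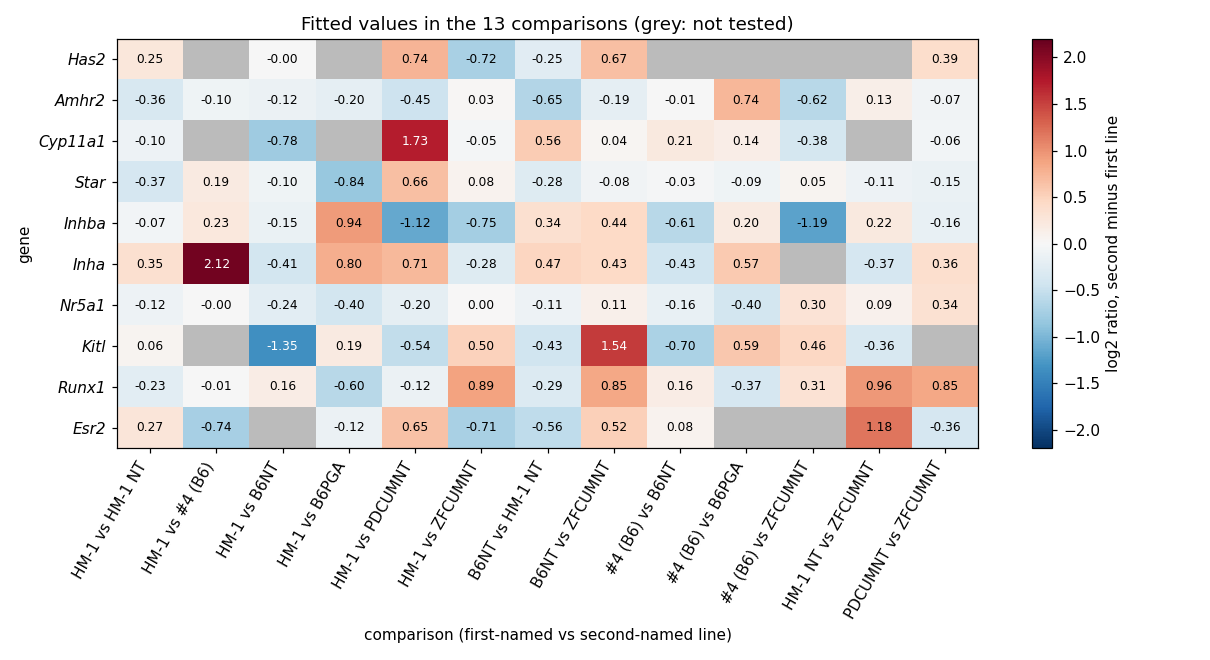
Fitted log2 ratio of the second-named over the first-named line for the 10 members (rows) in the 13 comparisons (columns); red is positive, blue negative and grey was not tested. The deepest cells are Inha in HM-1 vs #4 (B6) at 2.12 and Cyp11a1 in HM-1 vs PDCUMNT at 1.73, and no row or column has 1 colour throughout.

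The steroid genes come first, beginning with Nr5a1, which encodes steroidogenic factor 1, the nuclear receptor that switches on steroid enzymes. Over the 20 CUM arrays its ratio ran from -1.21 to 0.89 with a median of 0.13, and 14 of 20 were positive. The mean was 0.06 ± 0.14 (SE, adjusted p = 0.938, limma). It was -0.22 with the constant top values kept, and 0.01 to 0.12 without 1 array, lowest without array 4 and highest without array 1 of HM-1 vs PDCUMNT. Nr5a1 varied the least of the members, with a residual SD of 0.62 against a median of 0.89 over all features. It is a mean of 3 probes, while most members have 1. In HM-1 vs PDCUMNT its probes had SEs of 0.65, 0.47 and 0.31 when fitted singly, against 0.31 for their mean. The 1 probe of Amhr2 had 0.37 there. The part of averaging in the small spread was not tested. Between the CUM lines its 4 arrays read 0.39, 0.14, 0.17 and 0.66, all towards ZFCUMNT, at 0.34 ± 0.31 (adjusted p = 0.778). Its 3 probes did not follow each other: 2 probes of the gene had the same sign on 19 of 47, 29 of 50 and 21 of 49 arrays.

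Star carries cholesterol to the inner mitochondrial membrane, the first controlled step of steroid synthesis. On the 20 arrays it ran from -2.15 to 3.62 with a median of -0.02, and the mean was 0.12 ± 0.22 (adjusted p = 0.913, limma). It was -0.07 without array 3 of HM-1 vs PDCUMNT and 0.30 without array 2. Its extremes all came from HM-1 vs PDCUMNT, where the arrays read -0.66 and -2.15 with PDCUMNT in Cy5, and 3.62 and 1.83 with PDCUMNT in Cy3. The turned values thus split by dye, while the deposited ratios were negative on all 4. Probe 12181 made this pattern, with deposited ratios of -0.83, -3.44, -6.46 and -3.45, while probe 7832 was at -0.49, -0.87, -0.78 and -0.21. With the ratios of all arrays left as deposited, Star passed in that comparison, at -2.07 ± 0.38 (adjusted p = 5.95e-04), where 2.95% of features passed. The 2 Star probes had the same sign on 22 of 50 arrays.

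Cyp11a1 is the side-chain cleavage enzyme that turns cholesterol into pregnenolone. In HM-1 vs PDCUMNT its arrays read -0.31, 1.58, 5.76 and -0.11. Both dye orientations hold 1 array near 0 and 1 far above it. The fitted ratio was 1.73 ± 0.55 (adjusted p = 0.126, limma). Without array 3 it was 0.46, and without array 4 it was 2.48 with an adjusted p of 0.0326, in a comparison where 0.962% of features then passed. In HM-1 vs ZFCUMNT, against the same partner, the arrays read -0.57, -0.03, 0.84 and -0.44, with no common sign. The mean over the CUM comparisons, of which 4 could be tested, was 0.29 ± 0.27 without a test. In HM-1 vs B6PGA 2 arrays gave -7.02 and -3.48, but both had the same dye orientation and the others held no value, so this pair was not tested.

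Inha and Inhba encode the alpha subunit of inhibin and the beta A subunit that inhibin A shares with activin A. On the 18 CUM arrays with a value Inha ran from -0.95 to 2.71 with a median of 0.17, and 9 of 18 were positive. Its mean was 0.29 ± 0.34, without a test. The largest tested ratio of any member was Inha in HM-1 vs #4 (B6), where the arrays read -0.04, 0.40, 0.23 and 7.88. The first 3 lie close to 0 and the fourth carries the fitted 2.12 ± 0.69 (adjusted p = 0.459, limma). Without array 4 the ratio was 0.23, while a fit that weights arrays gave 3.08 with an adjusted p of 0.0276, in a comparison where 0.555% of features then passed. In PDCUMNT vs ZFCUMNT the 4 Inha arrays were all positive, at 0.35, 0.22, 0.28 and 0.61.

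Inhba had the lowest tested mean over the CUM comparisons, -0.48 ± 0.24 (adjusted p = 0.496, limma). Its 19 arrays ran from -3.69 to 2.54 with a median of -0.29, and 7 of 19 were positive. In HM-1 vs PDCUMNT they read -3.69, -0.92, 0.12 and -0.01, fitted at -1.12 ± 0.53 (adjusted p = 0.400), and at -0.23 without array 1. In #4 (B6) vs ZFCUMNT the 3 measured arrays were all negative, at -1.19, -0.72 and -1.70, while in B6NT vs ZFCUMNT they were at 1.36, 0.49, 0.00 and -0.09. The CUM comparisons thus differed in sign for this gene. Without B6NT vs ZFCUMNT and HM-1 NT vs ZFCUMNT, an alternative chosen with earlier results of these data known, the mean was -1.02 (adjusted p = 0.109). Inhba in HM-1 vs B6PGA was positive on all 4 arrays, at 0.80, 1.14, 0.49 and 1.36 (0.94 ± 0.53, adjusted p = 0.900), so the same gene leaned the other way in a comparison with no CUM line.

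Amhr2 encodes the type II receptor for anti-Müllerian hormone, a signal that granulosa cells both send and receive. Its upstream sequence is shown because it is the only member window with a match to the letters that steroidogenic factor 1, the product of Nr5a1, is known to bind. The 250 bases before its start, from RefSeq on GRCm38.p6, plus strand, chr15:102445117-102445366, carry AAGGTCA in capitals, its first base at -231 from the start site:
Amhr2: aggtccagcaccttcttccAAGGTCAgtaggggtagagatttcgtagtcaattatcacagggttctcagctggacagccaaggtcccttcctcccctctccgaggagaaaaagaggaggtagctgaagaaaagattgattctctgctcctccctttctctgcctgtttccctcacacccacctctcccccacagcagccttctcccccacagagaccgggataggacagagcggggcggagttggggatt
Windows of 300 bases (250 before and 50 after a start) were searched on both strands for 7 members with 9 start sites. AAGGTCA occurred in 1 of the 9, and in 4.72% of 32851 such mouse windows. A match is a description of letters and not a site in use.

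Over the 20 CUM arrays Amhr2 ran from -3.45 to 0.60 with a median of 0.20, and 12 of 20 were positive. The mean was -0.22 ± 0.17 (adjusted p = 0.707, limma), with the opposite sign to the median. In #4 (B6) vs ZFCUMNT 1 array lay at -3.45 and the others at 0.16, 0.47 and 0.36. Without that array the mean over the CUM comparisons was -0.06. In PDCUMNT vs ZFCUMNT the arrays read -0.04, -1.34, 0.50 and 0.58. Both arrays of one dye orientation are negative there and both of the other positive, and the same split stands in HM-1 vs #4 (B6), HM-1 vs B6NT, HM-1 vs PDCUMNT, HM-1 vs ZFCUMNT and HM-1 NT vs ZFCUMNT.

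Has2, the synthase that spins hyaluronan for the expanding cumulus, is the member that cumulus cells are best known for at ovulation, and it was the least well measured. It had values on 35 of 52 arrays and a residual SD of 2.03, above that of 98.8% of features. In HM-1 vs PDCUMNT its arrays read 0.54, -1.55, 2.30 and 1.68, and in HM-1 vs ZFCUMNT 0.54, -0.70, 0.58 and -3.29. Neither set has a common sign. The mean over the CUM comparisons, of which 3 could be tested, was -0.38, with a 95% interval from -1.67 to 0.92, or folds from 0.31 to 1.89, the widest of the 10. The median of its 14 arrays was 0.54, of the opposite sign, and 9 of 14 were positive. Of the 5 fitted ratios, the lowest, -3.68 in #4 (B6) vs ZFCUMNT, came from 1 array, and HM-1 vs ZFCUMNT was at -0.72, while the other 3 were positive, at 0.74, 0.67 and 1.09.

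Kitl encodes Kit ligand, which granulosa cells present to the Kit receptor on the oocyte. Over 18 CUM arrays it ran from -2.78 to 4.48 with a median of 0.28, and the mean was 0.32 ± 0.27 (adjusted p = 0.760, limma). In B6NT vs ZFCUMNT all 4 arrays were positive, at 4.48, 0.22, 1.14 and 0.34, fitted at 1.54 ± 0.57 (adjusted p = 0.601) and at 0.65 without array 1. In HM-1 vs B6NT they read -0.87, -0.72, -4.21 and 0.41, fitted at -1.35 ± 0.57 (adjusted p = 0.732) and at -0.48 without array 3. Both comparisons place B6NT on the low side of the reading used, and 1 array makes up most of each ratio. In #4 (B6) vs B6NT all 4 arrays were negative, at -0.64, -0.14, -0.87 and -1.14, fitted at -0.70 ± 0.57, again with B6NT low. In B6NT vs HM-1 NT they read -0.28, 0.84, -1.41 and -0.87, fitted at -0.43 ± 0.57, with B6NT on the high side. Neither passed.

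Runx1 encodes a transcription factor best known from blood formation that granulosa cells switch on at ovulation. Over 19 CUM arrays it ran from -1.93 to 4.85 with a median of -0.01, and 9 of 19 were positive. The mean was 0.58 ± 0.30 (adjusted p = 0.519, limma), the highest of the tested members, while the median was near 0. Single arrays lay far above the rest. HM-1 vs ZFCUMNT read 0.72, 4.85, -0.08 and -1.93, and HM-1 NT vs ZFCUMNT read 1.90, 4.34, -0.96 and -1.45. In both, the positive arrays had ZFCUMNT in Cy5 and the negative ones had it in Cy3. The 2 Runx1 probes had the same sign on 12 of 28 arrays where both were measured. With the constant top values kept as measured, the mean was 0.15.

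Esr2 encodes estrogen receptor beta, the form of the receptor that granulosa cells carry. Its promoter is shown as the one upstream member sequence with TGTGGT, the core that Runx proteins such as Runx1 are known to bind. The 250 bases before its start, from RefSeq on GRCm38.p6, minus strand, chr12:76177260-76177509, have the match in capitals, its first base at -78 from the start site:
Esr2: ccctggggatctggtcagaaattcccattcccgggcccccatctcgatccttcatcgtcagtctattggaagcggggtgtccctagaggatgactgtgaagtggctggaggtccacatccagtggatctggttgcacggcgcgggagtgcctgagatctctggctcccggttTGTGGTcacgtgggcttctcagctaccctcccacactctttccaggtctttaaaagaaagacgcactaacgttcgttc
TGTGGT was in 3 of the 9 member windows, those of Esr2, of 1 Cyp11a1 start and of 1 Runx1 start, and in 16.8% of all mouse windows. TGACGT, part of the element that factors answering cyclic AMP bind, was in 0 of the 9 and in 7.51% of all.

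Esr2 had the smallest residual SD after Nr5a1 among the members, 0.65. In HM-1 vs ZFCUMNT its arrays read -0.51, -0.93, -0.80 and -0.61, negative in both dye orientations, at -0.71 ± 0.33 (adjusted p = 0.935, limma). In HM-1 NT vs ZFCUMNT the 3 measured arrays read 0.78, 0.62 and 2.02, positive in both orientations, at 1.18 ± 0.38 (adjusted p = 0.232). In HM-1 vs PDCUMNT the 3 measured arrays read 0.30, 0.31 and 1.22, at 0.65 ± 0.38 (adjusted p = 0.576). Against the same partner, HM-1, the 2 CUM lines therefore gave ratios of opposite sign, while PDCUMNT vs ZFCUMNT directly gave -0.73, -0.30, 0.01 and -0.43 (-0.37 ± 0.33, adjusted p = 0.775), on 3 of 4 arrays lower in the line that was lower against HM-1. None of these passed. In HM-1 vs #4 (B6) the Esr2 arrays read 0.02, -2.03, -0.41 and -0.52, fitted at -0.74 ± 0.33 and, without array 2, at -0.33.

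**Figure D3:**
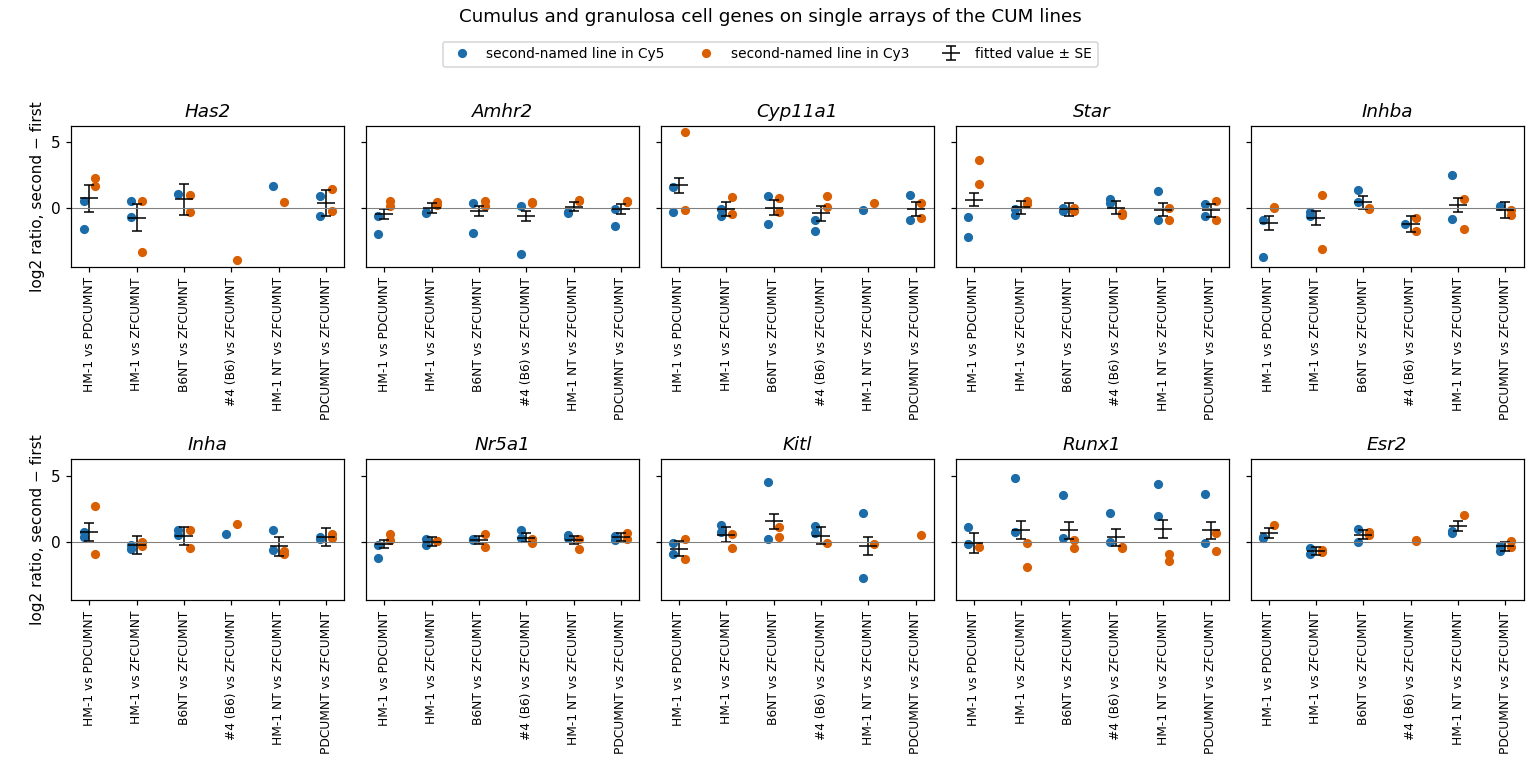
Turned log2 ratio on every measured array of the 6 comparisons with a CUM line, 1 panel per member; blue points have the second-named line in Cy5, orange points in Cy3, and the cross and bar are the fitted value ± SE where tested. In Esr2 the 4 arrays of HM-1 vs ZFCUMNT sit together from -0.93 to -0.51, while Runx1 in the same comparison spans -1.93 to 4.85.

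A model with 1 level per line, using all 13 comparisons at once, gives the order of the lines for each gene as a distance from the mean of the 7 lines. An F test for any difference among lines was possible for 9 members and passed for 0 of 9, against 3.24% of 15502 features. The order holds for Cy5 over Cy3, and with Cy3 over Cy5 it would be turned, first becoming last. Read as Cy5 over Cy3, PDCUMNT ranked first for Cyp11a1 (1.21 ± 0.45 SE), Star (0.45 ± 0.31) and Esr2 (0.61 ± 0.26), and last for Inhba (-0.66 ± 0.35). ZFCUMNT ranked first for Nr5a1 (0.19 ± 0.12), Kitl (0.46 ± 0.27) and Runx1 (0.72 ± 0.24). By the fitted values no member had both CUM lines in the first 2 or in the last 2 places. For Inhba this rests on a near tie. PDCUMNT was last there, and ZFCUMNT (-0.357 ± 0.215) lay just above B6NT (-0.363 ± 0.233). A swap of ZFCUMNT and B6NT would put both CUM lines in the last 2 places, the top if read as Cy3 over Cy5. For Amhr2 the CUM lines held places 5 and 6, ZFCUMNT at -0.19 ± 0.14 and PDCUMNT at -0.20 ± 0.23. For Kitl PDCUMNT was sixth, at -0.28 ± 0.48, and for Nr5a1 it was sixth as well, at -0.11 ± 0.19.

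The order for Cyp11a1, whose adjusted p was the smallest of the F tests at 0.311, went from PDCUMNT through HM-1 (0.44 ± 0.27), HM-1 NT (0.31 ± 0.40), ZFCUMNT (0.19 ± 0.29), B6NT (-0.16 ± 0.31) and #4 (B6) (-0.39 ± 0.33) to B6PGA (-1.60 ± 0.52). Gaps between neighbours exceeded their joint SE only at the top and the bottom of this order. The bottom place of B6PGA rests in part on the 2 HM-1 vs B6PGA arrays of 1 dye orientation. For Inhba B6PGA came first at 0.92 ± 0.35, #4 (B6) next at 0.51 ± 0.24, and HM-1 (0.13 ± 0.18), HM-1 NT (-0.18 ± 0.27), ZFCUMNT (-0.36 ± 0.21) and B6NT (-0.36 ± 0.23) followed before PDCUMNT, with an adjusted p of 0.334.

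For Runx1 ZFCUMNT stood above the next line, B6NT (0.07 ± 0.29), by more than their joint SE, and the remaining lines down to B6PGA (-0.47 ± 0.40) did not separate. For Esr2 the gap from PDCUMNT to HM-1 (0.13 ± 0.14) was of the same kind, and HM-1 NT was last at -0.39 ± 0.21. For Amhr2 the lines spanned 0.74, from B6PGA (0.39 ± 0.24) to HM-1 NT (-0.35 ± 0.19), and for Nr5a1 0.49. For Has2, Inha, Nr5a1 and Kitl no neighbouring lines differed by more than their joint SE. For Star the F test had an adjusted p of 0.876, the largest of the 9.

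Read as Cy5 over Cy3 on every array, the ratios of some members also followed the dye, as those of many features did. Had the ratios been turned before deposit, the dye term given next would be a part common to second-named over first-named lines. A term common to all arrays, the Cy5 over Cy3 part of the ratio whatever lines were labelled, passed for 2 of the 9 members tested, Amhr2 and Runx1, where 32.6% of 15507 features passed, so the members' share was no higher than that of all features. Before turning, Amhr2 was negative on 44 of 52 arrays, 22 of 26 in each dye orientation, with medians of -0.46 and -0.39. Its dye term was -0.45 ± 0.10 (SE, adjusted p = 9.41e-04, limma). Runx1 was positive before turning on 39 of 50 arrays, 20 of 26 and 19 of 24, with medians of 0.82 and 0.49, and its dye term was 0.93 ± 0.19 (adjusted p = 2.23e-04). Both genes thus kept mostly 1 sign whichever line was in Cy5. With probes tested singly the term passed for 7 of the 12 member probes tested, where 33.5% of all probes passed. Probes of 1 gene passed with opposite signs for Star (0.27 and -0.57) and for Nr5a1 (-0.47, 0.35 and -0.24).

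The dye term bears on the 2 readings of the ratios. If the ratios are not turned by the dye labels, 2 members pass in the mean of the CUM comparisons, Amhr2 at -0.64 ± 0.18 (adjusted p = 0.0102) and Runx1 at 1.24 ± 0.26 (adjusted p = 1.10e-03), where 15.6% of features pass. If the deposited ratio is Cy5 over Cy3 on every array, unturned ratios contain the dye part by construction. These 20 arrays are among the 52 that gave the dye term, so the 2 results are not independent. Whether the dye accounts for these calls was not tested. In the same reading Runx1 passes in HM-1 NT vs ZFCUMNT at 2.16 ± 0.56 (adjusted p = 0.0230), where 3.73% of features pass.

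**Figure D4:**
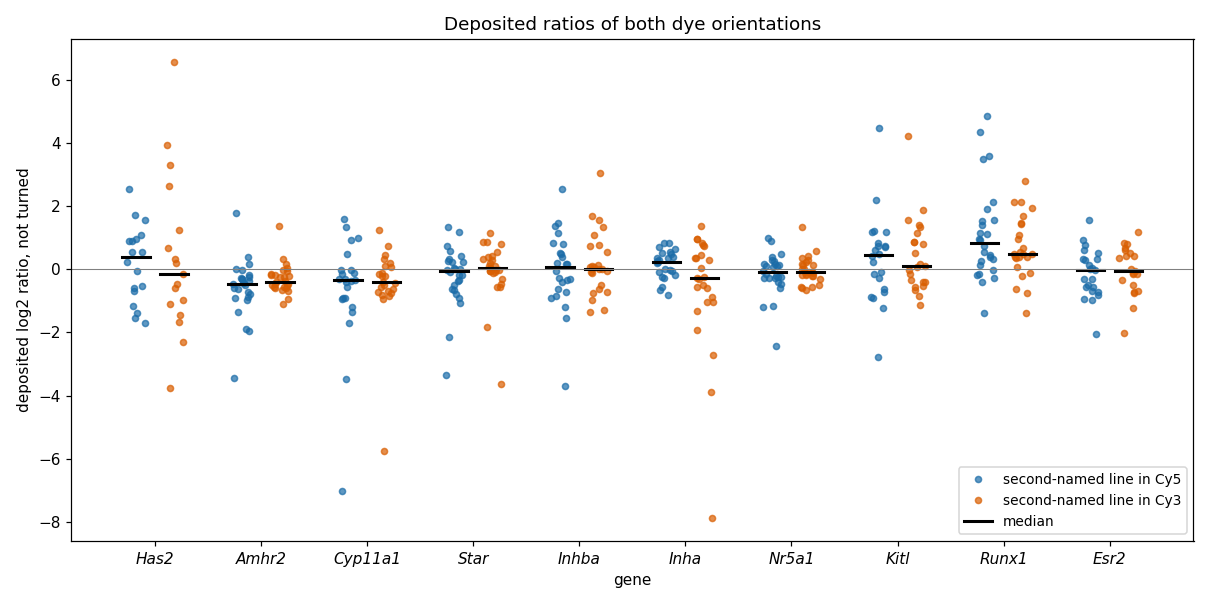
Deposited log2 ratio, not turned, on every measured array for the 10 members, with the second-named line in Cy5 (blue) or in Cy3 (orange) and the median as a black bar. Amhr2 lies mostly below 0 and Runx1 mostly above 0 in both orientations, with medians of -0.46 and -0.39 and of 0.82 and 0.49.

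Agreement of sign over the 4 arrays of a comparison was counted both ways. After turning, 10 of 102 complete sets of 4 member values had 1 sign throughout, or 9.80%, against 14.4% over all features. As deposited, 25 of 102 did, or 24.5%, against 24.4% over all features. Both the members and the whole array had 1 sign more often before turning than after.

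Related genes on fixed lists were described by counts, where 0.532% of the 205999 values of all features passed. At that share, a count of 0 or 1 does not set these related genes apart from other features. Of 18 further genes of cumulus expansion and ovulation, 4 were on the array, and 1 of their 48 tested values passed: Adamts1, a protease of the expanding matrix, at 1.13 ± 0.24 in HM-1 vs B6PGA (adjusted p = 0.0136, limma), a comparison without a CUM line. For steroid synthesis 7 of 15 genes were on the array, and 0 of 86 values passed. For granulosa transcription factors and receptors 9 of 18 were on the array with 0 of 116 values passing. In the mean of the CUM comparisons the largest of them was Gata6, an endoderm and granulosa factor, at 0.71 ± 0.25 (adjusted p = 0.223), and Nr0b1, a partner of Nr5a1, was at 0.42 ± 0.15 (adjusted p = 0.218).

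The pathway of activin, inhibin and anti-Müllerian hormone, beside the members, had 11 of 19 genes on the array and 0 of 139 values passing. In the CUM contrast Smad3, which relays activin signals, was at 0.35 ± 0.18 (adjusted p = 0.513), and the receptor Acvr1b was at -0.16 ± 0.32 (adjusted p = 0.927). Kit signalling had 10 of 13 genes and 0 of 113 values passing. The list of Runx partners and blood factors had 11 of 12 genes and 0 of 143 values passing. Oocyte markers had 4 of 12 genes and 0 of 45 values passing, with Zp3 at 0.17 ± 0.24 and Npm2 at -0.05 ± 0.20 in the CUM contrast.

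Markers of cells that a culture can hold were counted in the same way, where 0.532% of the 205999 values of all features passed; the difference between lists was not tested. Fibroblast and feeder markers, with 16 of 18 genes on the array, passed 10 times with a positive and 3 times with a negative ratio among 202 values, and 7 of these were in HM-1 vs B6PGA, where the collagen gene Col3a1 was at 1.64 ± 0.25 (adjusted p = 1.76e-04). In that comparison Inhba and Adamts1, which fibroblasts also express, also had positive ratios, and the part of fibroblasts in this was not tested. Pluripotency markers, with 13 of 16 genes on the array, passed 8 times positive and 7 times negative among 163 values. Zfp42, an ES cell marker, was at -2.44 ± 0.41 in HM-1 vs ZFCUMNT (adjusted p = 9.54e-04) and at -2.53 ± 0.41 in HM-1 vs PDCUMNT (adjusted p = 5.60e-04), so both CUM lines gave negative ratios against HM-1, as did #4 (B6), B6NT and B6PGA, at -2.85, -2.90 and -2.14.

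Genes whose fitted ratios followed a member's over the 13 comparisons were listed for the 5 members tested in all of them, by Pearson's r over 6451 genes. Many of these comparisons share a line, and each gene named is the highest of 6451, so these are descriptions only. Closest to Amhr2 was Atp6v0e2, a proton pump subunit (r = 0.905), and closest to Star was Tbxas1, thromboxane synthase (r = 0.864). Closest to Inhba was Fem1b (r = 0.870), to Nr5a1 the malic enzyme gene Me2 (r = 0.864) and to Runx1 Rbm15b (r = 0.866). None of the 5 was another member.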

How the data were processed

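Total RNA of the lines (20 microgram, per the labels) was reverse transcribed and labelled with Cy3 or Cy5. The authors deposited 1 table of log2 ratios, a scale read from the values; the scanner, background correction and normalization are not given in the sources used here. A constant top value per array (15.7 to 17.4, on 20 to 174 probes) was treated as not measured. Ratios were turned by the dye labels, and probes of a symbol were averaged, giving 17053 features. A feature was tested in a comparison with at least 3 measured arrays in both dye orientations. All 52 arrays entered 1 limma fit (limma 3.58.1, R 4.3.3) of 13 comparisons and a dye term, checked on simulated data, with Benjamini-Hochberg adjustment and a threshold of 0.05. Depth of arrays is not counted: their number limits the precision. Motifs were searched in RefSeq promoter windows (GRCm38.p6).

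The members and lists were chosen with earlier results of these data known. The text names all 10 members, other genes from the lists, and the genes most like a member over 13 comparisons. Over all pairs of same-numbered arrays from different comparisons the median residual correlation was -0.03, with 8 of 312 pairs over 0.1 and the lowest at -0.26. Pairs that share a line were not taken apart, and their sign can depend on which line is named first. The median therefore cannot tell whether numbers pair arrays. Alternatives changed centring, scaling, top values, probe averaging, the dye term, weights, filters, turning, the fit and single arrays.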

Additional observations from a re-analysis of the deposited data

Results flagged for a closer look

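In 10 of 102 complete sets of 4 arrays, 1 array of a member stood apart from the other 3 by Dixon's test at the 95% level, or 9.80%, where chance gives about 1 in 20 sets, or 5.1, and 5.84% of the 176962 complete sets over all features stood apart in the same way. Whether the members differ from other features in this was not tested. Inha had 3 of them. It was at 7.88 in HM-1 vs #4 (B6), where the others ran from -0.04 to 0.40, at 3.88 in HM-1 vs B6PGA against -0.34 to -0.08, and at 0.85 in HM-1 NT vs ZFCUMNT against -0.95 to -0.65. Amhr2 was at -1.89 in B6NT vs ZFCUMNT, where the others ran from 0.19 to 0.56, and at -3.45 in #4 (B6) vs ZFCUMNT against 0.16 to 0.47. Star was at -3.35 in HM-1 vs B6PGA, where the others ran from -0.12 to 0.05, and at -1.08 in B6NT vs HM-1 NT against -0.07 to 0.07. For Has2, the set comparing HM-1 with HM-1 NT held -2.64 on 1 array, where the others ran from 0.96 to 1.56. Inhba was at 1.48 in #4 (B6) vs B6NT against -1.53 to -1.09, and Nr5a1 at -2.42 in HM-1 vs B6PGA against 0.10 to 0.50. HM-1 vs B6PGA held 3 of the 10, on 3 different arrays.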

How the results depend on the processing

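The count of members past the threshold in the 13 comparisons was 0. It was 1 with array weights (Inha), 2 with ratios as they stand in the table (Star and Runx1), and 0 to 1 without 1 array at a time. In the mean of the CUM comparisons it was 0, 2 with ratios as they stand (Amhr2 and Runx1), and 0 to 0 without 1 array. For the dye term it was 2, and 2 to 3 without 1 array, while Cyp11a1 passed besides these 2 with array medians subtracted (adjusted p = 0.0483, limma). With probes tested singly 7 probes passed for the dye term, of Amhr2, Runx1, Star and Nr5a1, where 33.5% of all probes did. With the array number as a replicate block the 3 counts were 0, 0 and 2. Of 1267 member values recomputed with the ratios turned by the dye labels, 80 turned sign and none of these passed. With ratios as they stand, Star in HM-1 vs PDCUMNT turned from 0.66 to -2.07 and passed (adjusted p = 5.95e-04). Counts over all features moved more. In single comparisons they were 16 to 189, and moved by over 1.5 times in 11 comparisons without the dye term (6 to 121), in 11 with array weights (14 to 319), in 10 with arrays scaled (5 to 367) and in 10 as they stand (15 to 918). With each comparison fitted alone in limma 0 features passed, and 495 to 1766 per comparison were at an unadjusted p under 0.05. The 80 features of the CUM contrast became 121 with probes singly, 39 without the dye term, 4 fitted alone, 2056 as they stand, 51 with line effects, 205 without HM-1 NT vs ZFCUMNT and B6NT vs ZFCUMNT, and 53 to 112 without 1 array. The causes were not tested. A ratio table holds no signal over background, so weak probes could not be set aside.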

Other observations

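One of the Star probes had a pattern of its own, chosen after its values were seen. On all 16 arrays that carried #4 (B6), the deposited ratio of probe 7832 was positive in both dye orientations, from 0.36 to 1.71 with a median of 0.79. The other Star probe, 12181, was positive on 7 of 15 of these arrays.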
